A study of Caenorhabditis elegans with 4 samples.

Results

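The genes described here carry the insulin signal of *C. elegans* from its receptor to the transcription factor DAF-16. They are *daf-2* (sequence name Y55D5A.5), *age-1* (B0334.8), *daf-18* (T07A9.6), *pdk-1* (H42K12.1), *akt-1* (C12D8.10), *akt-2* (F28H6.1), *sgk-1* (W10G6.2) and *daf-16* (R13H8.1). They were chosen by name, with earlier results of these data known, so the share of them called may reflect the choice. The counts of all transcripts that carry the sequence name of a gene were added up. This gave 8 of the 46745 sequence names in the table, and 23 of its 57834 listed transcripts. Whole bodies of wild-type animals of the Bristol strain N2 were sequenced in 4 samples. 2 samples came from animals that ate *L. paracasei* subsp. *paracasei* 2004, a lactic acid bacterium (2004 samples), and 2 from animals that ate *E. coli* OP50, the standard laboratory food (OP50 samples). In all samples, feeding began 3 days after hatching, when the animals were young adults, and lasted 3 days. Each sample is RNA of pooled animals. The labels give S basal medium, whereas the methods of the study give NGM plates. Neither source says whether the 2 samples of a food came from separate cultures, so p-values measure the spread between these samples, which may be technical.

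DAF-2 is the only insulin/IGF-1 receptor of *C. elegans*. When insulin-like peptides activate it, the PI3-kinase AGE-1 makes the membrane lipid PIP3, and the phosphatase DAF-18 removes it. PIP3 recruits the kinases PDK-1, AKT-1 and AKT-2, and phosphorylation by the AKT kinases keeps the FoxO factor DAF-16 out of the nucleus. Reduced signalling lets DAF-16 enter the nucleus, and the pathway is best known for its control of dauer formation, stress resistance and lifespan. Much of this control acts on proteins, which RNA counts do not measure.

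The values were StringTie's estimated counts, which summed to 46350926 and 46339828 in the 2004 samples and to 44548901 and 50504029 in the OP50 samples. Values are given in CPM, the count for every 1000000 counts of its sample. A value of 0 is compatible with up to 3 counts, 0.0594 to 0.0673 CPM, from counting error alone. Of all genes, 12505 reached 0.5 CPM in at least 2 samples and entered the edgeR quasi-likelihood fit. A gene was called higher or lower when its p-value, adjusted by Benjamini-Hochberg over all of these, was under 0.1, and the 2-fold threshold of the study is stated beside it. The spread between replicates corresponded to a coefficient of variation of 17.7% for genes.

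In these libraries, RNA of whole animals differed in its tissue markers. For comparison with the counts below, 23.9% of all tested genes were called higher and 25.2% lower. All 10 body wall muscle markers were lower with 2004 (summed level 1162 and 1035 CPM in the 2004 samples, 2935 and 2693 CPM in the OP50 samples), as were 7 of 10 neuron markers (293 and 296 CPM against 357 and 373 CPM). Of 12 tested embryo markers, 7 were higher with 2004 (182 and 161 CPM against 120 and 117 CPM), but only 4 were called without 2004 replicate 1 or without OP50 replicate 2. Of 10 germline markers, 5 were higher and 1 was lower (2792 and 2663 CPM against 2113 and 1900 CPM), with 2 higher when 2004 replicate 1, 2004 replicate 2 or OP50 replicate 2 was left out. Of the 8 intestine markers, 4 were higher and 1 was lower (3317 and 3330 CPM against 2155 and 2802 CPM). Most of this sum with 2004 came from *asp-1* alone (2091 and 2141 CPM against 776 and 1290 CPM). The lower marker was *cpr-6* (595 and 608 CPM against 1045 and 1148 CPM), so the sum does not describe the whole list. Of the 8 oocyte and eggshell markers, 1 was higher and 1 was lower. Of 6 hypodermis markers, 2 were tested, of which 1 was higher and 1 lower. Of the 6 sperm markers, only *spe-11* passed the filter, and it was lower (0 and 9 counts in the 2004 samples, 66 and 86 in the OP50 samples). The sperm markers *gsp-3*, *msp-142* and *ssp-16* had 0 counts in all samples. In whole animals, fewer cells of a type and less RNA per cell cannot be told apart, and the part of the marker shifts in the results below was not tested.

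All 8 genes passed the filter. In animals fed 2004, 4 of them, *daf-2*, *age-1*, *daf-18* and *daf-16*, were higher, each by less than 2-fold, and *akt-2* was lower by more than 2-fold. The kinase genes *pdk-1*, *akt-1* and *sgk-1* did not pass the test. Among all tested genes, 23.9% were called higher and 25.2% lower, so about 1 in 2 genes (49.1%) was called, and 7.55% were higher by more than 2-fold. Both 2004 samples lay above both OP50 samples for the 4 higher genes, which held for 37.5% of all tested genes, and below them for *akt-2*, which held for 33.7%.

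**Figure D1:**
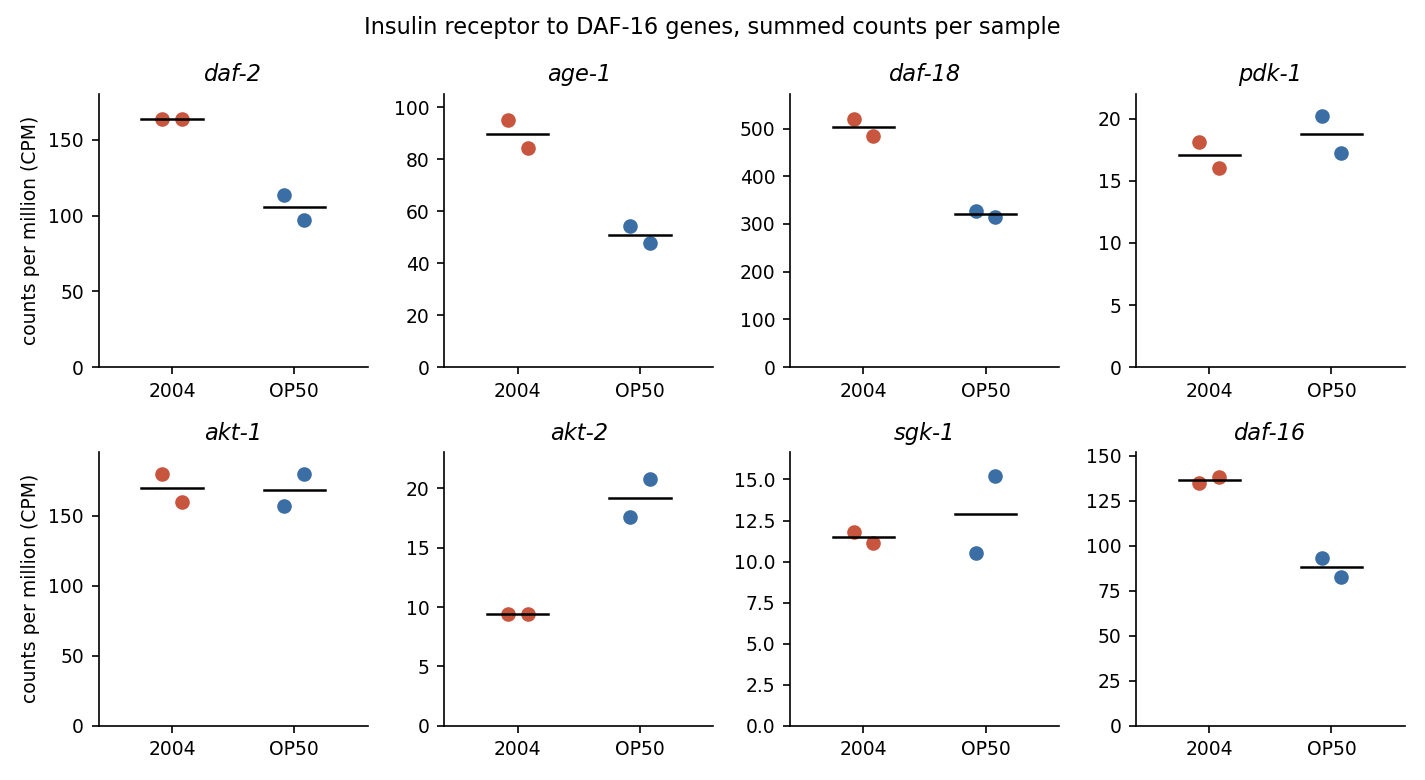
CPM of each of the 8 genes (vertical axes, starting at 0) in the 2 samples of each food (horizontal axis). Points are samples and lines are means. The 2004 points of *daf-2*, *age-1*, *daf-18* and *daf-16* lie above the OP50 points, those of *akt-2* lie below them, and those of *pdk-1*, *akt-1* and *sgk-1* overlap with them.

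The receptor gene *daf-2* lies on chromosome III at 2994514 to 3028800, minus strand (WBcel235, the span of its listed transcripts). Its level was 164 CPM in both 2004 samples, against 114 and 97.0 CPM in the OP50 samples. The 2004 samples were thus closer to each other than the OP50 samples were, and the groups did not overlap. *daf-2* rose 1.49-fold (log2 fold change 0.58 ± 0.16, standard error; adjusted p = 0.0160, edgeR, n = 2 per food). Nearly all of its counts came from transcript Y55D5A.5a, with 7503 and 7565 counts in the 2004 samples and 4819 and 4889 in the OP50 samples. Transcript Y55D5A.5b had 84 and 27 counts with 2004 and 245 and 11 with OP50, so its OP50 replicates differed more than the foods did.

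*age-1*, which encodes the catalytic subunit of PI3-kinase, lies on chromosome II at 11519328 to 11527054, minus strand. It had 95.1 and 84.4 CPM in the 2004 samples, against 54.2 and 47.8 CPM in the OP50 samples. Both 2004 values were well above both OP50 values. The rise of 1.69-fold had the smallest adjusted p-value among the higher genes of the pathway (log2 fold change 0.75 ± 0.14, adjusted p = 0.00242, edgeR). *age-1* shares 192 exonic bases, 4.89% of its length, with the antisense gene B0334.10, which had 0 counts in every sample.

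*daf-18*, whose product works against AGE-1, lies on chromosome IV at 420011 to 425177, minus strand. It was the most abundant of the 8, with 521 and 485 CPM in the 2004 samples against 327 and 315 CPM in the OP50 samples. Its groups did not overlap, and it rose 1.51-fold (log2 fold change 0.59 ± 0.17, adjusted p = 0.0211, edgeR). With 1 of the 2004 samples left out, the fold change stayed at 0.60 (without replicate 1) and 0.59 (without replicate 2), but the adjusted p-values were 0.154 and 0.175. Thus the genes of the lipid kinase and of the opposing lipid phosphatase both rose. The count of *age-1* relative to that of *daf-18* was 0.183 and 0.174 in the 2004 samples and 0.166 and 0.152 in the OP50 samples.

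PDK-1 phosphorylates the AKT and SGK kinases. Its gene, on chromosome X at 1321344 to 1327986, plus strand, had 18.1 and 16.03 CPM in the 2004 samples and 20.2 and 17.3 CPM in the OP50 samples. These ranges overlap, and the difference was within the spread (log2 fold change -0.19 ± 0.18, adjusted p = 0.424, edgeR).

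*akt-1*, one of the 2 genes for protein kinase B, lies on chromosome V at 10248905 to 10252845, plus strand. Its 180 and 160 CPM in the 2004 samples overlapped with the 157 and 179 CPM of the OP50 samples (log2 fold change -0.04 ± 0.14, adjusted p = 0.845, edgeR). The sign of this small value depended on the setting. It shares 8 exonic bases with the antisense gene *rop-1*, which had between 8832 and 14261 counts a sample.

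*akt-2*, the second gene for protein kinase B, lies on chromosome X at 14147700 to 14152070, plus strand. It had 9.45 and 9.41 CPM in the 2004 samples, against 17.6 and 20.8 CPM in the OP50 samples. Every 2004 value was thus less than any OP50 value, and the 2004 samples were nearly equal, with 438 and 436 counts. *akt-2* fell 2.103-fold (log2 fold change -1.07 ± 0.18, adjusted p = 0.00141, edgeR), the only one of the 8 past 2-fold, as were 14.8% of all tested genes in this direction. Over 15 settings its log2 fold change lay between -1.12 and -1.01, with adjusted p-values of at most 0.00756. Body wall muscle and neuron markers were lower in the same libraries, as given above, and their part in this fall was not tested. Nor was the part of its chromosome, since 33.3% of the tested genes on chromosome X were lower with 2004, against 23.9% of those on the autosomes.

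SGK-1 is a kinase related to AKT. *sgk-1*, on chromosome X at 16254843 to 16262122, minus strand, had 11.8 and 11.2 CPM in the 2004 samples and 10.6 and 15.2 CPM in the OP50 samples. The OP50 samples lay on both sides of the 2004 samples, and no change was detected (log2 fold change -0.21 ± 0.21, adjusted p = 0.446, edgeR).

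*daf-16*, on chromosome I at 10750498 to 10776703, plus strand, encodes the FoxO transcription factor at the end of the pathway. Its summed level was 135 and 138 CPM in the 2004 samples, against 93.2 and 82.7 CPM in the OP50 samples. The size of its rise, 1.49-fold (log2 fold change 0.58 ± 0.15, adjusted p = 0.0126, edgeR), was the same as that of the receptor gene to 2 decimals. Thus the genes at the start and at the end of the pathway had near-equal fold changes. The ratio of *daf-2* to *daf-16* counts was 1.22 and 1.19 in the 2004 samples and 1.22 and 1.17 in the OP50 samples.

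**Figure D2:**
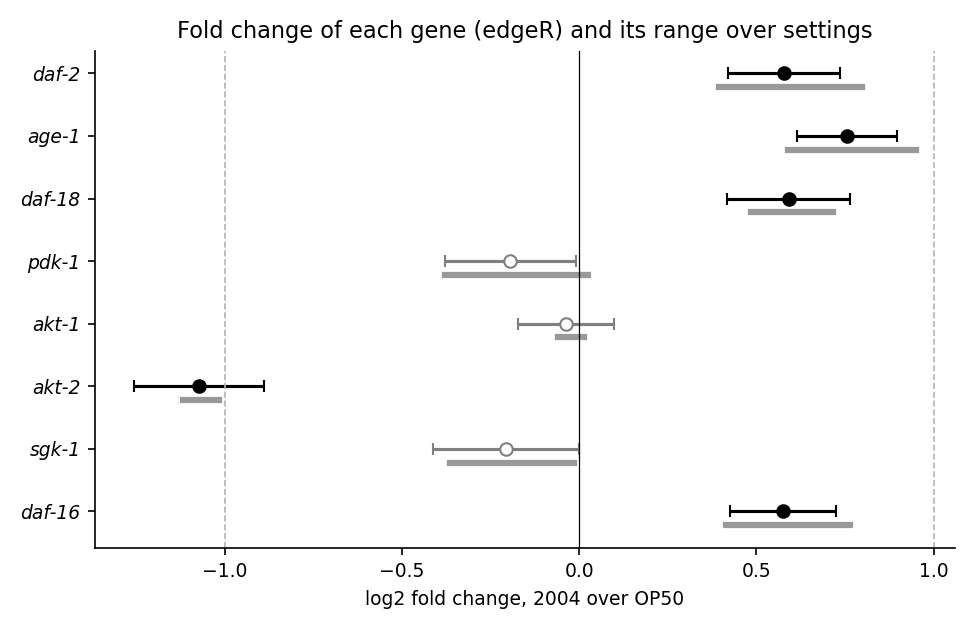
Log2 fold change, 2004 over OP50 (horizontal axis), of each gene (vertical axis). Circles with bars are the edgeR estimate ± standard error, filled at an adjusted p-value under 0.1. Grey bars below are the range of the estimate over all settings tried, and dashed lines are 2-fold. The bar of *akt-2* ends at -1.01, the bars of the 4 higher genes stay between 0.39 and 0.95, and those of *pdk-1* and *akt-1* cross 0.

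Over the same 15 settings, the log2 fold change lay between 0.39 and 0.80 for *daf-2*, between 0.59 and 0.95 for *age-1*, between 0.48 and 0.72 for *daf-18* and between 0.42 and 0.76 for *daf-16*. The setting of an adjusted p-value under 0.05 repeats the values of the main fit, so it adds no separate fit to this number. *daf-2*, *age-1*, *akt-2* and *daf-16* had adjusted p-values under 0.1 in 15 of 15 settings, and *daf-18* in 13.

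The pattern of *daf-16* over the samples was also close to that of *daf-2*. Among 6794 tested genes with a mean of at least 10 CPM, likeness was measured as the root mean square difference of log2(CPM + 2), centred for each gene, over the 4 samples. The genes most like *daf-16* were F43G6.3 (0.0107), D2096.11 (0.0128) and, in the third place, *daf-2* (0.0234). Those most like *daf-2* were *egl-18* (0.0174), which encodes a GATA factor, *icd-2* (0.0207) and *seu-1* (0.0214). With 4 samples of 2 foods, such likeness describes mainly a common difference between foods.

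To compare levels between genes, CPM was divided by the exonic length in kilobases. In the 2004 samples, *daf-18* had the highest level with 151 ± 7.55 CPM per kilobase (SD, n = 2), followed by *akt-1* with 74.5 ± 6.25 and *daf-16* with 36.97 ± 0.665. *age-1* (22.9 ± 1.93) and *daf-2* (19.9 ± 0.0126) came next, then *pdk-1* (7.05 ± 0.610) and *sgk-1* (7.02 ± 0.279), and *akt-2* was the lowest with 3.96 ± 0.0121 CPM per kilobase. Only *pdk-1* and *sgk-1* overlapped among these neighbours, although *daf-2* came before *age-1* (23.2 against 22.9) when the longest transcript set the length. In the OP50 samples, *daf-18* (96.4 ± 2.56), *akt-1* (73.8 ± 7.03) and *daf-16* (23.9 ± 2.02) had the same places. *age-1* (12.99 ± 1.15) and *daf-2* (12.8 ± 1.43) overlapped there, as did *akt-2* (8.07 ± 0.941), *sgk-1* (7.88 ± 2.01) and *pdk-1* (7.73 ± 0.850 CPM per kilobase). At these lengths, the 3 kinase genes on chromosome X thus had overlapping levels with OP50, whereas with 2004 *akt-2* lay below the other two. The length of *akt-2* includes 379 bases found only in transcript F28H6.1b, which held at most 1.37% of its counts. Its level may thus be understated, and the overlap with OP50 depends on this length.

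The *akt* genes encode closely related kinases, and *akt-1* was the more abundant with both foods. The count of *akt-1* was 19.03 and 16.97 times that of *akt-2* in the 2004 samples, against 8.90 and 8.63 times in the OP50 samples. This ratio was 2.05 times as high with 2004, without overlap. An exact two-sided permutation test over the 4 samples gave p = 0.333, the smallest value that 4 samples allow (adjusted p = 0.5 over the 6 ratios computed, which were picked with the fold changes known). The ratio of *akt-1* to *sgk-1* was 15.2 and 14.3 with 2004 and 14.9 and 11.8 with OP50, which overlap (exact p = 0.667, adjusted p = 0.8).

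The counts of single transcripts depend on how StringTie divides shared reads, and their spread between replicates was larger (coefficient of variation 50.4%). In the fit of 16577 transcripts, 8.49% were called higher and 9.02% lower. Of the 23 listed transcripts, 17 passed the filter, 2 were called higher and 2 lower. B0334.8 of *age-1* (adjusted p = 0.0767) and T07A9.6 of *daf-18* (adjusted p = 0.0917), each the only listed transcript of its gene, were higher. F28H6.1a of *akt-2* was lower (log2 fold change -1.08 ± 0.17, adjusted p = 0.0604), with 432 and 432 counts in the 2004 samples and 780 and 1043 in the OP50 samples, nearly all counts of the gene. R13H8.1f of *daf-16* was the other lower transcript (adjusted p = 0.0754). The *daf-2* transcript Y55D5A.5a just missed the threshold (log2 fold change 0.61 ± 0.16, adjusted p = 0.103, edgeR). Called transcripts depended on the setting, and B0334.8, F28H6.1a and R13H8.1f passed in 7 of 14 settings each and T07A9.6 in 6.

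For *pdk-1*, transcript H42K12.1a had 313 and 386 counts in the 2004 samples and 621 and 570 in the OP50 samples. H42K12.1b had the opposite order, with 527 and 357 counts in the 2004 samples and 278 and 302 in the OP50 samples. Transcript a thus held 37.3% and 52.0% of the gene's counts with 2004, against 69.1% and 65.4% with OP50, without overlap. Neither transcript passed the test (adjusted p = 0.172 for a and 0.247 for b, edgeR), and only 1 exonic base of a and 21 of b are not in the other, so the division between them rests on few bases. For *sgk-1*, the share of transcript W10G6.2a was 13.7% and 50.9% in the 2004 samples and 3.19% and 26.8% in the OP50 samples. Replicates of 1 food thus differed as much as the foods did. For *akt-1*, transcript C12D8.10a held between 94.6% and 96.0% of the counts in every sample.

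*daf-16* had 10 listed transcripts, which begin at separate places of the gene. Transcripts d, f and h begin at the first annotated starts, b and c begin within their long intron, a begins shortly before the exons common to all, and e within these exons. Within the first group, f held 5.71% and 10.4% of the gene's counts in the 2004 samples, against 59.3% and 52.0% in the OP50 samples. The share of h was 56.1% and 60.1% in the 2004 samples, against 1.71% and 0.0% in the OP50 samples. The share of d was 7.20% and 6.02% with 2004 and 1.57% and 12.57% with OP50. The shares of f and h did not overlap between the foods, and the exons of these transcripts overlap for most of their length. Only f was called. Transcript h was not (adjusted p = 0.125, edgeR), and it passed in 3 of 13 settings, with log2 fold changes between 5.51 and 14.9. Transcripts a, b.1, c.1 and d were not called either.

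**Figure D3:**
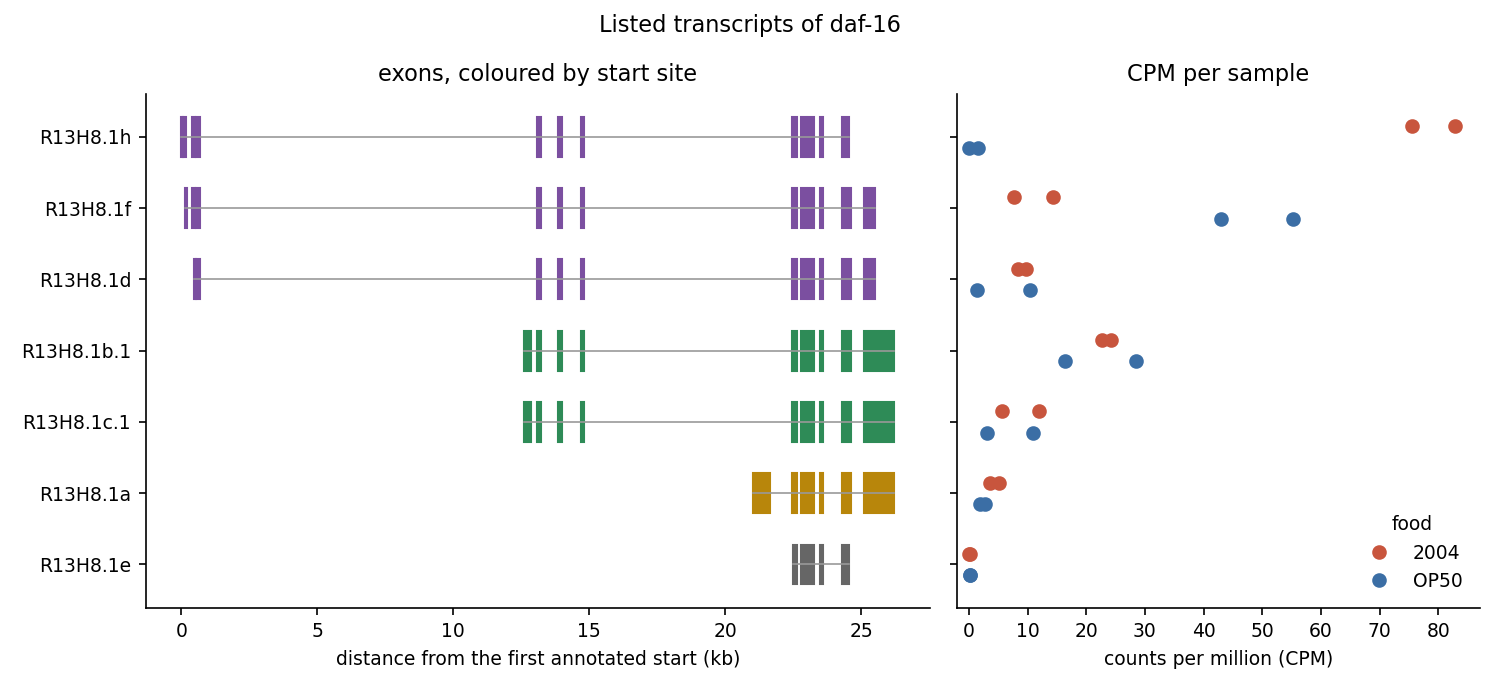
Left, exons of 7 listed *daf-16* transcripts (boxes, coloured by start site) against the distance from the first annotated start in kilobases. Right, CPM of each transcript in each sample (points, coloured by food). The 2004 points of transcript h and the OP50 points of transcript f stand apart from all others. R13H8.1b.2, c.2 and g, with at most 19 counts a sample, are not drawn.

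Summing over transcripts with neighbouring starts removes the division within a group of starts. It does not remove the division of reads between groups, whose transcripts share exons (b.1 and f share 1744 exonic bases). Starts within 1 kilobase of each other were chained, which gave 13358 tested start-site groups over all genes, of which 18.7% were called higher and 20% lower. The group of d, f and h had 4302 and 4893 counts (92.8 and 106 CPM) in the 2004 samples, against 2599 and 2695 counts (58.3 and 53.4 CPM) in the OP50 samples. The samples of the foods did not overlap, as in 36.1% of all tested groups in this direction, and the sum rose 1.71-fold (log2 fold change 0.78 ± 0.16, adjusted p = 0.0255, edgeR). It was called in 14 of 14 settings, with log2 fold changes between 0.63 and 0.94. The group of b and c had 36.6 and 28.7 CPM in the 2004 samples and 31.9 and 27.3 CPM in the OP50 samples. These overlap, and the test did not call it (log2 fold change 0.08 ± 0.19, adjusted p = 0.779). Transcript a, alone in its group, had 5.05 and 3.58 CPM with 2004 and 2.81 and 1.88 CPM with OP50 (log2 fold change 0.81 ± 0.37, adjusted p = 0.158).

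**Figure D4:**
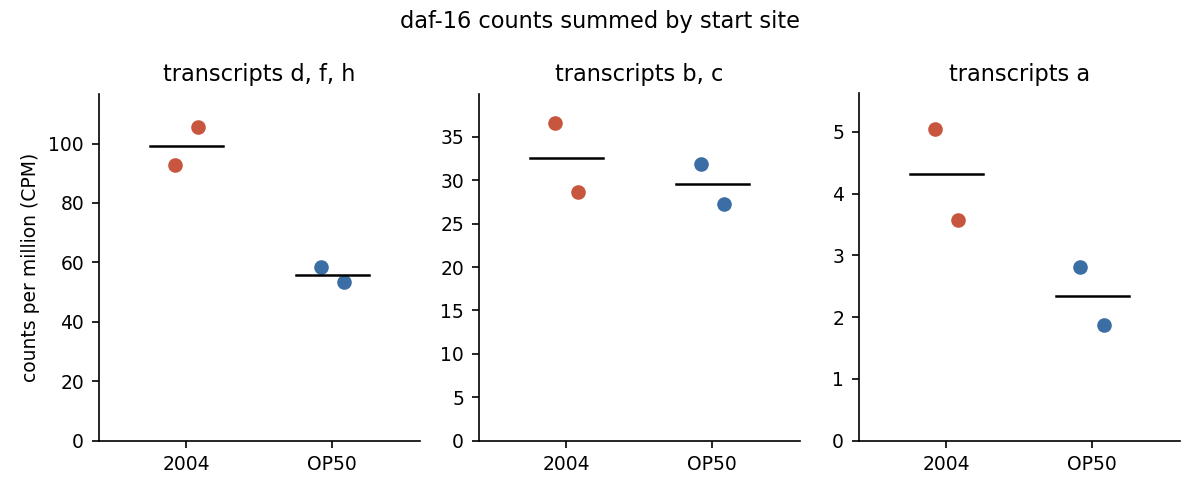
CPM of *daf-16* (vertical axes, starting at 0) summed over transcripts that begin near each other, in the 2 samples of each food. Points are samples and lines are means. For d, f and h, the 2004 samples (92.8 and 106 CPM) lie above the OP50 samples (58.3 and 53.4 CPM), and for b and c the samples of the foods overlap.

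The group of d, f and h thus held 69.0% and 76.5% of the counts of *daf-16* in the 2004 samples, against 62.6% and 64.6% in the OP50 samples. The group of b and c held 27.2% and 20.8% with 2004, against 34.2% and 33.01% with OP50. Whether the start sites differed from each other was tested with diffSpliceDGE of edgeR. It compares the fold change of each group with that of its whole gene, which includes the group itself. The group of d, f and h held most of the counts, so it was compared largely with itself. The difference was 0.14 on the natural log scale, not log2, for d, f and h (edgeR adjusted p = 0.99995). It was -0.35 on the same scale for b and c (edgeR adjusted p = 0.768). A shift between start sites was therefore not shown, although only the first group was called. Of 1559 groups of 694 genes, 3.27% were called in this test, which was added after the values were seen.

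Upstream of the receptor, 9 of 11 insulin-like peptide genes listed passed the filter, and 5 were lower with 2004, with a negative log2 fold change in all 9 (median log2 fold change -1.03, against -0.028 over all tested genes, of which 25.2% were lower). This list and those below were chosen with earlier results of these data known, so their shares and medians may reflect the choice. *ins-7*, which encodes an agonist of DAF-2 made in the intestine, had 42 and 26 counts in the 2004 samples against 140 and 430 in the OP50 samples, and fell 8.08-fold (log2 fold change -3.01 ± 0.46, adjusted p = 0.000779, edgeR). *daf-28*, another agonist, fell 2.51-fold with 32 and 52 counts against 116 and 90 (adjusted p = 0.0410). *ins-11* (7 and 12 counts against 46 and 35, adjusted p = 0.0206), *ins-4* (24 and 17 against 31 and 70, adjusted p = 0.0800) and *ins-18* (57 and 43 against 111 and 86, adjusted p = 0.0741) were lower as well. The falls thus covered agonists and *ins-18*, whose product is known as an antagonist of the receptor. These were small counts, and 2 of the ligands were called without 2004 replicate 1 and 3 without 2004 replicate 2 or OP50 replicate 1. Many insulin-like peptides are made in neurons, and the part of the lower neuron markers was not tested.

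Of 4 adaptors of the receptor and of PI3-kinase, *aap-1*, the gene of the regulatory subunit that partners AGE-1, was the only one called. It had 64.5 and 57.9 CPM in the 2004 samples against 68.7 and 79.3 CPM in the OP50 samples (log2 fold change -0.32 ± 0.12, adjusted p = 0.0511, edgeR). The call was lost without 2004 replicate 1, 2004 replicate 2 or OP50 replicate 2. The catalytic subunit gene *age-1* was thus higher while that of its partner was lower by a small amount.

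Among 22 tested genes of 27 listed as regulators of the kinases or of DAF-16, 9 were higher and 3 lower, against 23.9% and 25.2% of all tested genes. The median log2 fold change was 0.29, against -0.028 over all tested genes. *smk-1*, whose product is a nuclear partner of DAF-16, had 183 and 159 CPM in the 2004 samples against 90.6 and 99.3 CPM in the OP50 samples (log2 fold change 0.79 ± 0.13, adjusted p = 0.00121, edgeR). *imb-2*, for an importin that carries DAF-16 into the nucleus, had 234.8 and 208 CPM against 130 and 117 CPM (log2 fold change 0.78 ± 0.15, adjusted p = 0.00325). *swsn-1*, for a subunit of the SWI/SNF chromatin remodeller, had 172 and 120 CPM against 87.9 and 73.6 CPM (log2 fold change 0.78 ± 0.18, adjusted p = 0.00682). The sirtuin gene *sir-2.1* (0.69 ± 0.13, adjusted p = 0.00228) and the heat shock factor gene *hsf-1* (0.68 ± 0.15, adjusted p = 0.00481) rose by similar amounts. These genes were named for their small adjusted p-values, and a common role of their products was not tested. Higher as well, named after their values were seen, were *cbp-1* (0.69, adjusted p = 0.00720) and *pptr-1* (0.56, adjusted p = 0.0467). So were *cst-1* (0.49, adjusted p = 0.0885) and *hcf-1* (0.35, adjusted p = 0.0705, edgeR).

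*unc-43*, which encodes the calcium/calmodulin-dependent kinase CaMKII of neurons and muscle, had 34.7 and 34.0 CPM in the 2004 samples against 63.0 and 78.4 CPM in the OP50 samples. It fell 2.12-fold (log2 fold change -1.09 ± 0.13, adjusted p = 0.000139, edgeR). The other lower genes of the list, named after their values were seen, were the kinase gene *jnk-1* (log2 fold change -1.61, adjusted p = 0.0313) and the beta-catenin gene *bar-1* (-0.80, adjusted p = 0.0410). The lower calls numbered 2 without 2004 replicate 1 or OP50 replicate 1, 1 without 2004 replicate 2 and 4 without OP50 replicate 2. The higher calls numbered 6 without 2004 replicate 1, 7 without 2004 replicate 2, 12 without OP50 replicate 1 and 9 without OP50 replicate 2. *pqm-1*, for a zinc finger factor whose nuclear entry is opposite to that of DAF-16, had 33.9 and 28.5 CPM against 34.5 and 38.8 CPM and just missed the threshold (log2 fold change -0.29 ± 0.13, adjusted p = 0.104). The regulator genes *eak-3* and *sdf-9* had 0 counts in all samples.

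The TOR kinase complexes act beside the insulin pathway in growth control. All 9 listed genes were tested, and 3 were higher and 1 lower, none past 2-fold. Over all tested genes 23.9% were higher and 25.2% lower, and with 9 genes the list is not set apart from these shares. The median log2 fold change was 0.28, against -0.028 over all tested genes. *rsks-1*, for the S6 kinase, had 132 and 121 CPM in the 2004 samples against 79.2 and 90.8 CPM in the OP50 samples (log2 fold change 0.52 ± 0.12, adjusted p = 0.00807, edgeR). *daf-15*, the Raptor gene, and *let-363*, the TOR kinase gene, had log2 fold changes of 0.37 (adjusted p = 0.0481) and 0.35 (adjusted p = 0.0636). *rheb-1*, for the small GTPase that activates TOR, was lower (-0.34, adjusted p = 0.0601). With 1 sample left out, 1 gene was called higher without 2004 replicate 1, 2004 replicate 2 or OP50 replicate 2, and 4 without OP50 replicate 1, and *rheb-1* lost its call in each of these fits.

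At the end of the pathway stand the genes that DAF-16 activity is known to raise or lower. Of 26 genes listed as induced by DAF-16, 24 were matched by symbol and 22 tested. The list did not move in 1 direction, with 4 higher and 9 lower, against 23.9% and 25.2% of all tested genes (median log2 fold change -0.40, against -0.028). The lysozyme gene *lys-7* had 96.3 and 140 CPM in the 2004 samples against 884 and 1191 CPM in the OP50 samples (log2 fold change -3.16 ± 0.26, adjusted p = 1.45e-05, edgeR). The ferritin gene *ftn-1* had 4.401 and 9.41 CPM against 70.8 and 117 CPM (log2 fold change -3.78 ± 0.33, adjusted p = 2.43e-05). *icl-1*, for the glyoxylate cycle enzyme, had 231 and 218 CPM against 839 and 968 CPM (log2 fold change -2.06 ± 0.18, adjusted p = 2.85e-05). These target genes thus fell by 4-fold or more, while *dod-6* (-1.79, adjusted p = 1.34e-05), *dod-3* (-2.31, adjusted p = 0.000148) and *mdl-1*, for a MAD-like factor (-0.98, adjusted p = 0.00131), were lower as well.

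The 4 induced targets that were higher, named after their values were seen, were *aqp-1* for an aquaporin (log2 fold change 1.73, adjusted p = 0.00476), *lea-1* for a desiccation protein (1.196, adjusted p = 0.00382), the catalase gene *ctl-1* (0.68, adjusted p = 0.0146) and the nicotinamidase gene *pnc-1* (0.48, adjusted p = 0.0666). *ctl-1* and *ctl-2* are near-identical neighbours that can exchange reads, so the value of *ctl-1* is uncertain. The superoxide dismutase gene *sod-3*, a common reporter of DAF-16 activity, had 38 and 17 counts in the 2004 samples and 36 and 50 in the OP50 samples, which overlap (log2 fold change -0.66 ± 0.53, adjusted p = 0.339, edgeR). No change of this reporter was detectable at such counts.

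Of 12 genes listed as repressed by DAF-16, 9 were tested, and 6 were lower with 2004, against 25.2% of all tested genes. All 9 had a negative log2 fold change (median -1.94, also with *dod-22* at its bound, given below). Over all tested genes, 6078 of 12505 had a positive one. *dod-19* had 15.3 and 15.99 CPM in the 2004 samples against 55.4 and 82.0 CPM in the OP50 samples (log2 fold change -2.17 ± 0.16, adjusted p = 8.96e-06, edgeR). *dod-23* (-1.94, adjusted p = 1.05e-05) and *dod-24* (-3.47, adjusted p = 3.63e-05) were lower too. *dod-22* had 0 counts in both 2004 samples and 97 and 226 in the OP50 samples, at least 51.4-fold lower when 3 counts are set for each 2004 library. The yolk protein gene *vit-5* (-1.30, adjusted p = 0.0464) and *ins-7*, which is also among the ligands, complete the 6. Both target lists, which DAF-16 is known to move in opposite directions, thus had more lower than higher genes.

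**Figure D5:**
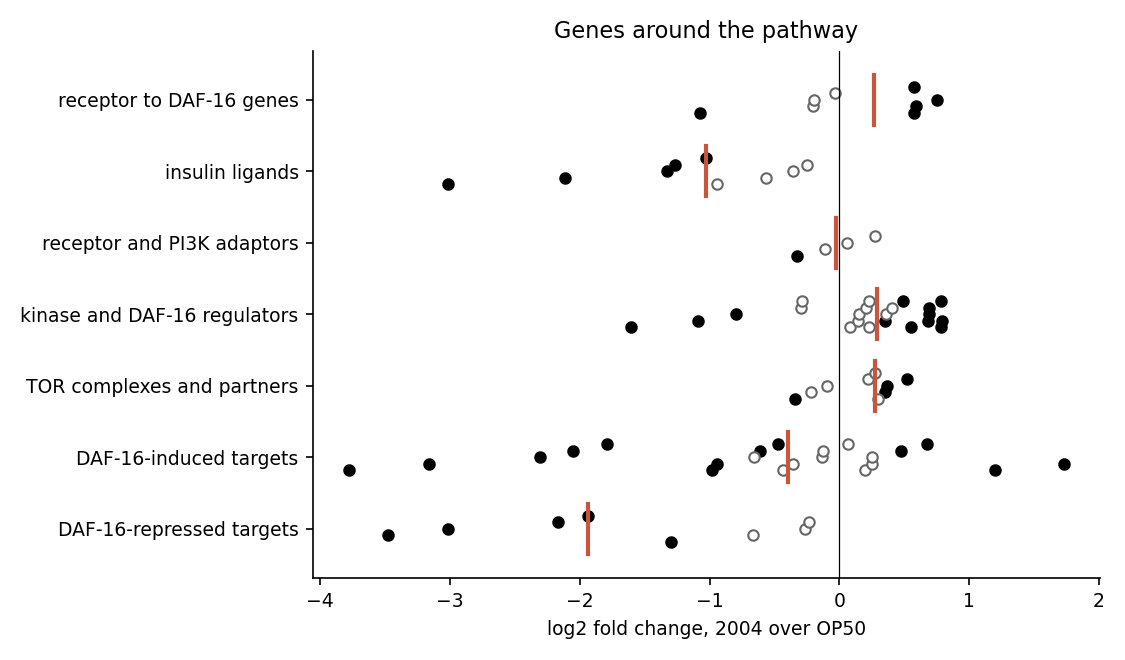
Log2 fold change, 2004 over OP50 (horizontal axis), of the tested genes of each list (rows). Points are genes, filled at an adjusted p-value under 0.1, and red lines are medians. The median is -1.03 for the insulin ligands, 0.29 for the regulators, -0.40 for the DAF-16-induced and -1.94 for the DAF-16-repressed targets. *dod-22*, with 0 counts in the 2004 samples, is not drawn.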

How the data were processed

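Per the labels, FastQC 0.11.8, Trim Galore 0.6.4, HISAT2 2.1.0, SAMtools 1.7 and StringTie 2.1.1 were used with genome WBcel235. The authors deposited estimated counts of each transcript as integers, without normalization. The annotation, read length and strandedness are not given in the sources used here, so overlapping and antisense genes may share counts.

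Transcripts were summed by sequence name. Of the transcripts, 99.5% matched a gene of Ensembl release 115, which gave coordinates, exons and start sites. Sequences of promoters and proteins were not used here, so the planned motif search was not run. Genes, transcripts and start-site groups that reached 0.5 CPM in 2 or more samples were fitted over the whole table with edgeR 4.0.16 (glmQLFit and glmQLFTest, TMM) in R 4.3.3, 2004 against OP50, without covariates. The scripts were tested on simulated data. Standard errors came from the F statistic.

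The alternatives were DESeq2 1.42.0, limma-voom (limma 3.58.1), 2 other normalizations, 3 other filters, a replicate block, an adjusted p-value under 0.05, each sample left out, starts chained within 200 bases, and the longest transcript as length. The members and lists were chosen with earlier results of these data known. Named are the members, their transcripts and start-site groups, up to 6 called genes with the smallest adjusted p-values of each list, *sod-3*, *pqm-1*, and the 3 genes most like *daf-2* and *daf-16*. Totals lay between 44548901 and 50504029 counts.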

Additional observations from a re-analysis of the deposited data

How the results depend on the processing

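The calls of *daf-2*, *age-1*, *akt-2* and *daf-16* held in the fits of summed counts under DESeq2, limma-voom, RLE size factors, library size alone, the other filters, the replicate block, the crossed block, an adjusted p-value under 0.05 and with each sample left out. *daf-18* lost its call when a 2004 sample was left out (log2 fold change 0.60 and 0.59), with a range of 0.48 to 0.72 over all 4 samples left out in turn. In these fits the lone sample of a food was assumed to vary like the others. In the fit of start-site groups, the group of *daf-2* holds the same counts as the gene. It was called there with adjusted p = 0.0551 (edgeR), but not in every setting. Uncalled values changed sign for *akt-1* with library size alone (0.014) and without 2004 replicate 2 (0.0015), and for *pdk-1* without OP50 replicate 1 (0.025). With 1 sample left out, *akt-1* ranged from -0.061 to 0.0015 and *pdk-1* from -0.38 to 0.025. Their sums by start site did so too, with 0.014 and 0.0020 for *akt-1* (range -0.065 to 0.0020) and 0.019 for *pdk-1* (range -0.38 to 0.019), as did that of the *daf-16* transcripts b and c without 2004 replicate 1 (-0.047) or OP50 replicate 2 (-0.11), with a range up to 0.29. Counts of called transcripts (1407 higher, 1496 lower) moved most: 2687 and 2633 with DESeq2, 449 and 522 without a filter, and 15 to 93 and 11 to 119 with 1 sample left out. Called start-site groups (2501 and 2669) numbered 1155 to 2220 and 1519 to 2247 with 1 sample left out. The replicate numbers did not pair the samples (correlation of replicate differences between foods -0.11 over 12505 genes). With the replicate block, edgeR called 0 transcripts higher and 0 lower (3463 at an unadjusted p under 0.05, against 5049 without it and 5931 by DESeq2 without it), 2691 genes higher and 2871 lower. With the numbers of 1 food crossed, chosen after seeing the data, it called 0 and 0 transcripts and 3336 and 3417 genes. Of the uncalled transcripts, signs changed with library size alone for C12D8.10a (0.011), C12D8.10b (0.017) and R13H8.1b.1 (0.062), with limma-voom for R13H8.1b.1 (0.097) and Y55D5A.5b (0.057), and for R13H8.1b.1 with the replicate block (0.061) and its crossed form (0.061). With 1 sample left out, the range was -0.24 to 0.25 for C12D8.10b, -0.41 to 0.54 for R13H8.1b.1, -0.29 to 1.39 for R13H8.1c.1, -0.18 to 2.49 for R13H8.1d, -2.35 to 2.45 for Y55D5A.5b and -0.49 to 3.33 for W10G6.2a. The cause of these differences was not tested. Low counts limit the insulin ligands and *sod-3*.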

Other observations

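The shares of called genes differed by chromosome, which was not tested. Of 1778 tested genes on chromosome X, which holds *akt-2*, *pdk-1* and *sgk-1*, 33.3% were called lower and 19.1% higher, with a median log2 fold change of -0.26. Of 10635 genes on the autosomes, 23.9% were called lower and 24.8% higher, with a median of 0.0024. Chromosome V, which holds *akt-1*, had 31.1% lower and a median of -0.18, and chromosomes I to IV had between 19.1% and 24.4% lower. With library size alone, 28.2% of the genes on X and 19.8% on the autosomes were lower. With each sample left out, chosen after seeing the data, the share was between 24.5% and 33.5% on X and between 17.97% and 23.8% on the autosomes.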
